A study of Mus musculus with 10 samples.

Results

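The fatty acid desaturases and elongases described here are Scd1, Scd2, Fads1, Fads2, Fads3, Elovl1, Elovl2, Elovl3, Elovl5 and Elovl6, 10 genes chosen by symbol out of 18055 genes listed in any library. Their RNA was measured by RNA sequencing in primary hepatocytes isolated from wild-type C57BL/6 mice by collagenase perfusion and seeded on collagen-coated plates. The labels give DMEM with 10% FBS as the medium, and the study's methods describe a change to medium without serum before treatment. There were 5 groups of 2 libraries. Vehicle cells received no free fatty acid (FFA), PA cells received 200 µM palmitate for 24 h and LA cells received 12 µM linoleate for 24 h. PA+NTP and LA+NTP cells received the same FFA after 1 h with Neurotropin (NTP), an extract of inflamed rabbit skin used against chronic pain, at 0.4 NU/mL. The dose of NTP was taken from the study's methods because the labels give none. No group received NTP without an FFA. No source used here gives the age or sex of the mice, or says whether the libraries of a group came from separate animals or cultures, so the p-values measure only the spread between these libraries, which may be technical. PA and LA were given at different concentrations, so that saturation of the fatty acid and its dose cannot be told apart in any comparison of PA with LA.

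Desaturases put double bonds into acyl chains and elongases lengthen the chains. Stearoyl-CoA desaturases (SCD) turn saturated acyl-CoAs such as palmitoyl-CoA and stearoyl-CoA into monounsaturated ones. The fatty acid desaturases FADS1 and FADS2 act on polyunsaturated acids that the animal must eat, and with the elongases ELOVL2 and ELOVL5 they convert linoleate into arachidonate and longer products. ELOVL6 extends palmitate toward stearate, and ELOVL1 and ELOVL3 make very long saturated and monounsaturated chains. In liver several of these genes are known as targets of the sterol regulatory element-binding protein SREBP-1c and of the liver X receptors. Polyunsaturated fatty acids are known to restrain some of them.

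Levels below are FPKM, fragments scaled to transcript length and sequencing depth, and differences are log2 fold changes from an edgeR quasi-likelihood fit of expected counts over all 10 libraries. A gene was called when its Benjamini-Hochberg adjusted p over the 14097 tested genes was under 0.05 and its fold change at least 1.5. Where a member met the adjusted p but not the fold, this is said. For genes of the other lists not every such difference is given, so one left out does not mean that none was found. The libraries held 13142588 to 60046937 expected counts. The hepatocyte markers Alb, Apoa1, Ttr, Cps1, Hnf4a, Serpina1a and Tat were all above 1 FPKM in every library, whereas the 3 cholangiocyte markers summed to at most 1.11 FPKM. The 5 endothelial markers summed to 15.6 to 21.9 FPKM, led by Pecam1 at up to 10.7 FPKM, and the 6 stellate cell markers to 15.8 to 19.2 FPKM, led by Dcn at up to 14.95 FPKM. Of the 4 adipocyte markers Fabp4 was at 3.82 to 8.91 FPKM and Cfd at up to 0.22 FPKM, and Adipoq and Plin1, like both neutrophil markers S100a8 and S100a9, were listed in no library. Cd68 reached 287 FPKM, but the other 6 Kupffer cell and macrophage markers did not exceed 4.59 FPKM. A trend with GC content separated the groups, and its source was not tested. How far a gene stood from its average over libraries correlated with the GC content of its transcript across 13818 genes, with Spearman's rho from -0.556 to -0.465 in the 4 libraries with an FFA alone and from 0.335 to 0.558 in the other 6 libraries. This is a description across genes that share a library. Each comparison of a library with FFA alone against one with NTP or Vehicle therefore crosses the GC trend, whereas PA against LA does not, and values with the trend removed are given beside the results of the members that it moves most. The part of the trend in the results was not tested beyond that.

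Scd1 (NCBI gene 20249, chr19:44394450-44407709) and Scd2 (20250, chr19:44293676-44306864) lie 87.6 kb apart on mouse build GRCm38. Their coding sequences were identical at 962 of 1065 aligned bases, or 90.3%, so the level of one could hold reads of the other wherever they are alike. Over 60 bases at the most alike stretch (chr19:44401827-44401886, minus strand, for Scd1 and chr19:44299621-44299680, plus strand, for Scd2) they did not differ at all. The capitals mark the codons of a conserved histidine box, part of the iron-binding active site of these enzymes.
Scd1: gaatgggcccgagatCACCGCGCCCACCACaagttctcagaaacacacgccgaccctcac
Scd2: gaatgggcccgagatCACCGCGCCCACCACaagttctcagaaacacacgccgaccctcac
At the least alike stretch (chr19:44406647-44406706 and chr19:44294967-44295026 on the same strands), which tells the genes apart, 36 of 60 bases were identical, and the capitals mark the 24 that differed.
Scd1: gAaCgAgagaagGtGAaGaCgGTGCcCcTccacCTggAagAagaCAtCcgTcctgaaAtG
Scd2: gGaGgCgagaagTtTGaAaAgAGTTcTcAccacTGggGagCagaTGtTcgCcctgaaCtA
Of the 31-base sequences of their transcripts, 8.3% in Scd1 and 6.86% in Scd2 also occurred in another gene, most often Scd3. Among the other members this share was 7.06% for Elovl6, shared mostly with Gm11295, and at most 1.29% for the rest.

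Scd1, the main stearoyl-CoA desaturase of the liver, fell to 45.8% of its Vehicle level with PA and was near that level with LA. It was the most abundant member in every group. Its level was 444 and 459 FPKM in the Vehicle libraries, 201 and 212 FPKM with PA, 204 and 206 FPKM with PA+NTP, 437 and 428 FPKM with LA, and 451 and 468 FPKM with LA+NTP. All 4 libraries with PA lay below all 6 without it, with no value in between. The change from Vehicle was -1.09 (SE 0.057, edgeR adjusted p = 2.25e-08) with PA and -0.02 (SE 0.056, edgeR adjusted p = 0.824) with LA. The 95% interval of the latter was -0.14 to 0.10. PA differed directly from LA by -1.08 (SE 0.057, edgeR adjusted p = 1.70e-07), and PA+NTP from LA+NTP by -1.19 (SE 0.057, edgeR adjusted p = 4.19e-08). Both of these and the fall against Vehicle were called with any library left out. With the GC trend removed, the fall with PA was -0.86 and still called, and the difference between PA and LA was -1.08, but the value for LA against Vehicle turned to 0.21 (edgeR adjusted p = 0.0217), below the fold threshold.

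The summed level of the 7 hepatocyte markers was also lower in the 4 libraries with PA than in the other 6. Most of it came from Alb, at 1929 to 2818 FPKM, and Apoa1, at 181 to 958 FPKM. Unlike Scd1, the sum was higher with PA+NTP than with PA. It was 2298 to 2528 FPKM with PA, against 3279 to 3487 FPKM in Vehicle and 3308 to 3367 FPKM with LA, and was 2780 to 3118 FPKM with PA+NTP and 3925 to 4174 FPKM with LA+NTP. Of the 7 markers, 4 were called between PA and Vehicle, 3 between PA and LA, and 6 between PA+NTP and LA+NTP. Over all tested genes 14.9%, 3.23% and 3.82% were called in these comparisons. Fewer hepatocytes and less of these RNAs per hepatocyte cannot be told apart in bulk libraries. The 7 markers of Kupffer cells and macrophages summed to 205 FPKM in both Vehicle libraries, 201 to 237 FPKM with PA, 264 to 294 FPKM with PA+NTP, 123 to 128 FPKM with LA and 179 to 192 FPKM with LA+NTP, nearly all of it from Cd68. Clec4f was at 0.03 to 0.29 FPKM, and Vsig4 and Timd4 were at 0 in at least 1 library. The endothelial sum was 15.6 to 17.5 FPKM in the 4 libraries with PA and 18.2 to 21.9 FPKM in the other 6. The stellate sum was 15.8 to 17.0 FPKM with PA, 16.9 to 19.2 FPKM with PA+NTP and 17.7 to 18.8 FPKM in the other 6. Between PA and Vehicle 4 of its 6 markers were called, beside 14.9% of all tested genes. The part of any of these marker lists in the levels of the members was not tested.

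Scd2, the stearoyl-CoA desaturase best known from brain, was measured at 1.92 to 2.63 FPKM in all 10 libraries. Its 2 libraries were 2.09 and 2.56 FPKM in Vehicle, 2.13 and 2.63 FPKM with PA, 2.12 and 2.22 FPKM with PA+NTP, 1.92 and 2.11 FPKM with LA, and 2.23 and 2.61 FPKM with LA+NTP. The ranges of PA and Vehicle overlapped, and no comparison of Scd2 reached an adjusted p under 0.05. The 95% interval of its log2 difference between PA and Vehicle was -0.21 to 0.38, which does not reach the fall of Scd1. The ratio of Scd1 to Scd2 within a library was 80.8 to 96.4 in the 4 libraries with PA and 179 to 227 in the other 6.

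**Figure D1:**
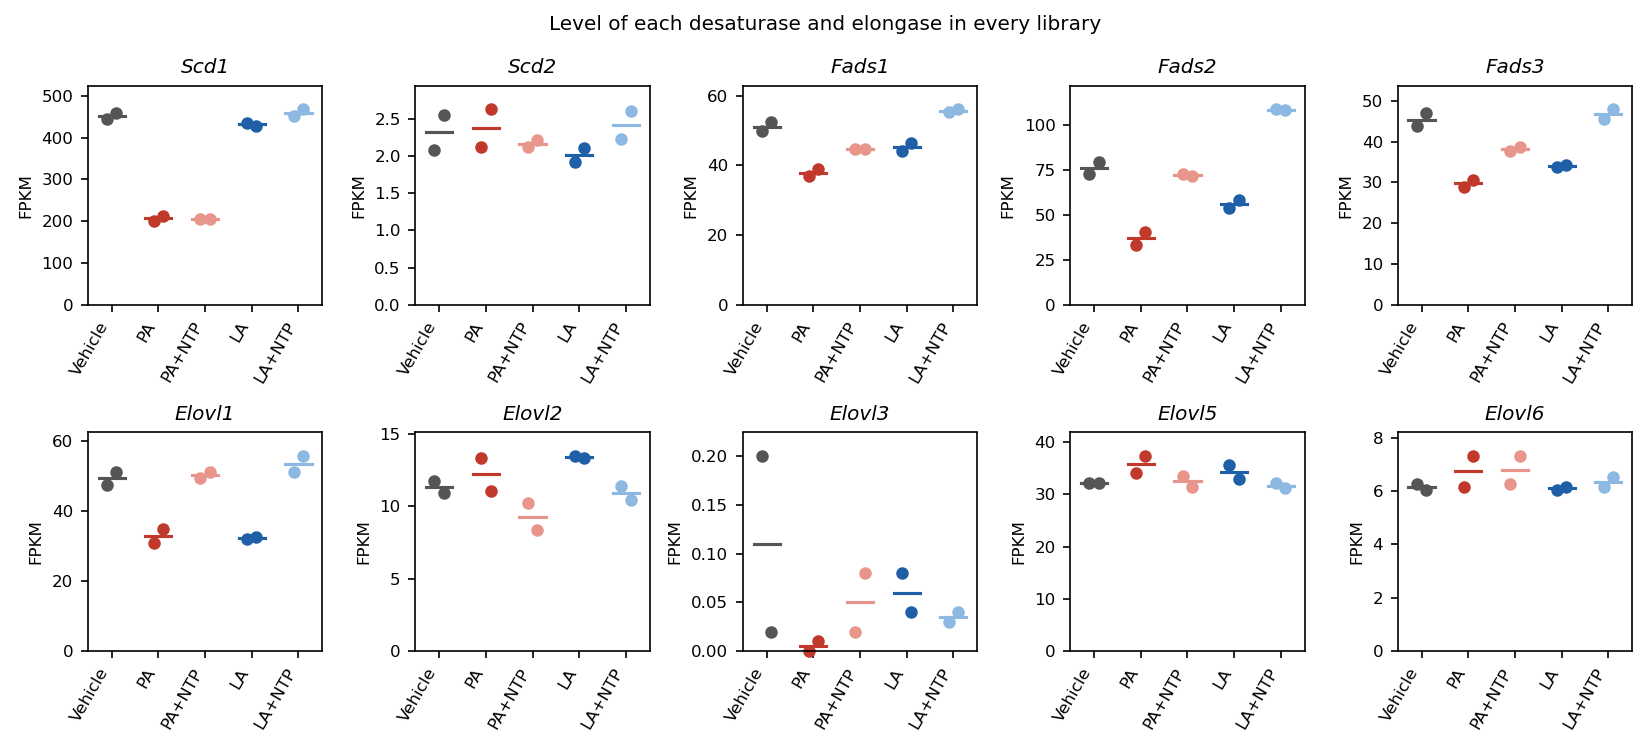
Level in FPKM (vertical axes, each starting at 0) of the 10 desaturases and elongases in every library; points are the 2 libraries of a group and bars their mean. Scd1 lies at 201 to 212 FPKM in the 4 libraries with PA and at 428 to 468 FPKM in the other 6, whereas Fads2 and Elovl1 are lower with either FFA alone than with the same FFA and NTP.

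Fads3 (60527, chr19:10040855-10060113), Fads2 (56473, chr19:10062765-10101503) and Fads1 (76267, chr19:10182877-10196874) stand in a row on chromosome 19, with 2.7 kb between Fads3 and Fads2 and 81.4 kb between Fads2 and Fads1. Fads2, whose enzyme takes the entry step from linoleate into the longer polyunsaturated acids, changed the most of the 3. Its level was 73.2 and 79.5 FPKM in Vehicle, 33.5 and 40.4 FPKM with PA, 73.1 and 71.8 FPKM with PA+NTP, 53.7 and 58.4 FPKM with LA, and 109 and 109 FPKM with LA+NTP. PA had the lowest libraries, LA came next, Vehicle and PA+NTP lay close together, and LA+NTP was the highest, with no library of LA, PA or LA+NTP inside the range of another group. The change from Vehicle was -1.0 (SE 0.081, edgeR adjusted p = 7.41e-07) with PA, a fall to 48.4% of the Vehicle level. With LA it was -0.40 (SE 0.078, edgeR adjusted p = 8.98e-04), which met the adjusted p but not the fold, and it was -0.26 with the GC trend removed. PA was lower than LA by -0.60 (SE 0.081, edgeR adjusted p = 3.35e-04), a fold of 1.51 that stands just above the threshold. That call was lost without PA replicate 1, where the difference was -0.49, and without LA replicate 2, where it was -0.54, and under scaling by library size alone, where it was -0.58. The adjusted p stayed under 0.05 in each of these.

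The table of the authors gives Fads2 a transcript of 1508 bases, whereas the GENCODE M21 transcript used here for sequence is 3150 bases, so the level of Fads2 relative to other genes depends on the annotation. Comparisons of Fads2 between groups use the same length throughout.

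Fads1, the desaturase that makes arachidonate, was also lowest with PA and highest with LA+NTP, over a narrower range. Its libraries were 49.99 and 52.3 FPKM in Vehicle, 37.0 and 38.8 FPKM with PA, 44.7 and 44.7 FPKM with PA+NTP, 44.2 and 46.3 FPKM with LA, and 55.3 and 56.1 FPKM with LA+NTP. Only PA+NTP and LA overlapped, and both lay below Vehicle. The difference from Vehicle was -0.40 (SE 0.057, edgeR adjusted p = 7.13e-05) with PA and -0.13 (SE 0.056, edgeR adjusted p = 0.0764) with LA, and PA was below LA by -0.27 (SE 0.057, edgeR adjusted p = 0.00847). None reached the fold threshold. The PA value was -0.22 and the LA value turned to 0.04 once the GC trend was removed.

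Fads3, a relative of FADS1 and FADS2 that acts on sphingoid bases, was 43.8 and 47.0 FPKM in Vehicle, 28.9 and 30.7 FPKM with PA, 37.6 and 38.7 FPKM with PA+NTP, 33.8 and 34.2 FPKM with LA, and 45.5 and 47.9 FPKM with LA+NTP. Every library with an FFA alone lay below every other library. The difference from Vehicle was -0.57 (SE 0.062, edgeR adjusted p = 7.77e-06) with PA, just under the fold threshold, and -0.37 (SE 0.062, edgeR adjusted p = 2.56e-04) with LA. Without Vehicle replicate 1 (-0.62) or PA replicate 2 (-0.62) the PA value was called. After removal of the GC trend it was -0.35, and the LA value was -0.16 with an edgeR adjusted p of 0.11. PA and LA differed by -0.20 (SE 0.062, edgeR adjusted p = 0.0571).

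The members of the cluster did not keep their proportions. The ratio of Fads2 to Fads1 was 1.46 and 1.52 in the Vehicle libraries, 0.905 and 1.04 with PA, 1.64 and 1.61 with PA+NTP, 1.21 and 1.26 with LA, and 1.97 and 1.94 with LA+NTP. It was lowest with PA and highest with LA+NTP, and the 5 groups did not overlap. The ratio of Fads3 to Fads1 moved less, from 0.738 to 0.791 in the 4 libraries with an FFA alone and from 0.822 to 0.899 in the other 6. The ratio of Scd1 to Fads1 was 5.45 and 5.47 with PA and 4.57 and 4.61 with PA+NTP, and 8.16 to 9.87 in the 6 libraries without PA. These ratios are given as levels, and no test was run on them.

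**Figure D2:**
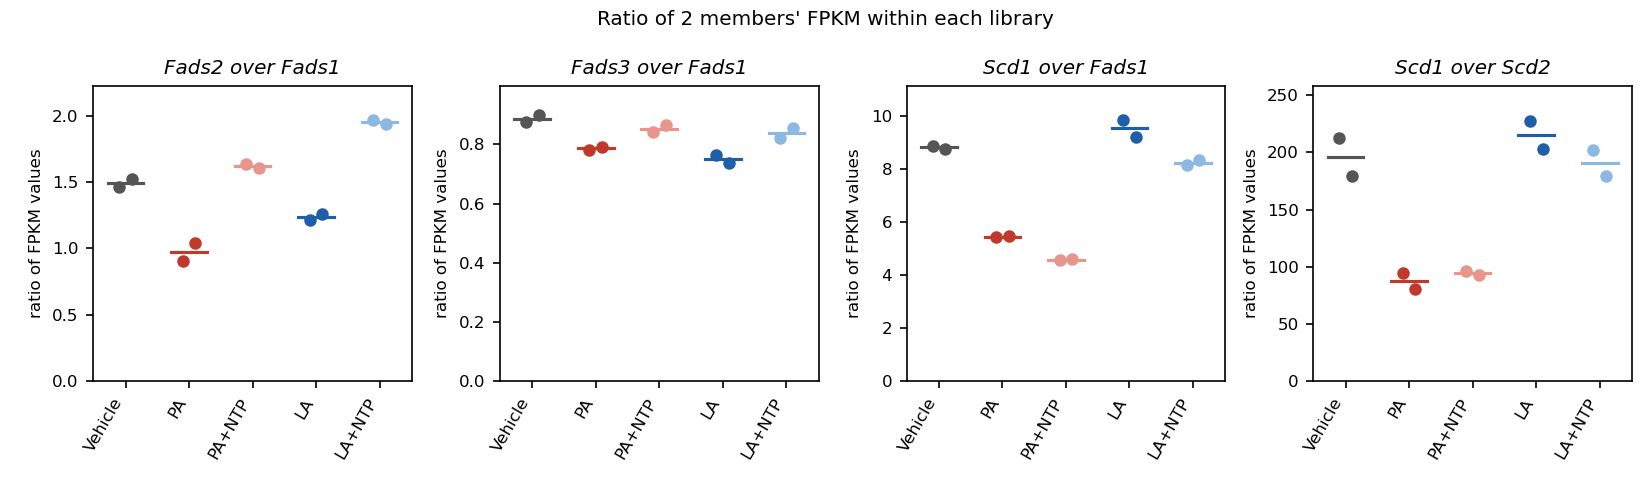
Ratio of the FPKM of a pair of members within each library (vertical axes, starting at 0); points are libraries and bars the mean of the 2 libraries of a group. Fads2 over Fads1 is lowest with PA, at 0.905 and 1.04, and highest with LA+NTP, at 1.97 and 1.94, while the ratios with Scd1 split the 4 libraries with PA from the other 6.

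Elovl1 (54325, chr4:118426874-118432953), which elongates saturated and monounsaturated chains to very long lengths, was the elongase that differed most between groups. Its libraries were 47.5 and 51.1 FPKM in Vehicle, 30.8 and 34.9 FPKM with PA, 49.4 and 51.2 FPKM with PA+NTP, 32.1 and 32.5 FPKM with LA, and 51.1 and 55.7 FPKM with LA+NTP. PA and LA overlapped, and all 4 of their libraries lay below the other 6. The difference from Vehicle was -0.55 (SE 0.075, edgeR adjusted p = 4.90e-05) with PA and -0.57 (SE 0.074, edgeR adjusted p = 4.28e-05) with LA, both under the fold threshold. Without Vehicle replicate 1 both were called, at -0.59 and -0.61, and without PA replicate 2 the PA value was called at -0.64. PA and LA differed by 0.02 with a 95% interval of -0.14 to 0.18. Removing the GC trend reduced the values to -0.37 and -0.40. An exon of Elovl1 overlaps one of Cdc20 on the opposite strand, and whether the counting used strand is not given in the sources used here.

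Elovl5 (68801, chr9:77917365-77984519), the elongase of the polyunsaturated pathway, varied little. It was 32.2 and 32.2 FPKM in Vehicle, 34.1 and 37.4 FPKM with PA, 33.5 and 31.5 FPKM with PA+NTP, 35.7 and 32.9 FPKM with LA, and 32.1 and 31.2 FPKM with LA+NTP. The 2 libraries of PA lay just above Vehicle, by 0.19 (SE 0.066, edgeR adjusted p = 0.0301), which became 0.11 (edgeR adjusted p = 0.207) with the GC trend removed. PA and LA overlapped.

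Elovl2 (54326, chr13:41182382-41220403), which carries the polyunsaturated acids on to the longest products, was 11.8 and 10.9 FPKM in Vehicle, 13.4 and 11.1 FPKM with PA, 10.2 and 8.36 FPKM with PA+NTP, 13.5 and 13.4 FPKM with LA, and 11.4 and 10.5 FPKM with LA+NTP. The LA libraries were above Vehicle by 0.29 (SE 0.101, edgeR adjusted p = 0.0325), under the fold threshold. This was 0.05 without the GC trend. The transcript of Elovl2 had the lowest GC content of the members, at 44.4%, against 54.9% for Scd1, the highest.

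Elovl6 (170439, chr3:129532386-129638495), the elongase of palmitate itself, was 6.27 and 6.04 FPKM in Vehicle, 6.17 and 7.32 FPKM with PA, 6.28 and 7.32 FPKM with PA+NTP, 6.06 and 6.15 FPKM with LA, and 6.14 and 6.52 FPKM with LA+NTP. No comparison reached an adjusted p under 0.05. The 95% interval was -0.03 to 0.39 for PA against Vehicle, -0.17 to 0.24 for LA against Vehicle and -0.06 to 0.35 for PA against LA. Elovl3 (12686, chr19:46131897-46135694), known from brown fat, skin and male liver, had at most 7 counts in a library, and did not pass the filter on low counts. It was listed at 0.01 to 0.2 FPKM in 9 libraries and was at 0 in PA replicate 1, so nothing about it was detectable at this depth.

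Read across the members, PA against Vehicle called 2 of the 9 tested, Scd1 and Fads2, both lower, beside 14.9% of all tested genes called. At the adjusted p alone 6 of 9 passed, 5 lower (Scd1, Fads1, Fads2, Fads3 and Elovl1) and Elovl5 higher, beside 45.5% of all genes. LA against Vehicle called no member by edgeR or DESeq2, beside 10.6%, and 4 passed the adjusted p alone (Fads2, Fads3 and Elovl1 lower and Elovl2 higher), beside 41.3%, with 5 at an unadjusted p under 0.05. The median over the 9 members was -0.40 with PA and -0.13 with LA, against -0.01 over all tested genes in each. The count with PA was 4 without Vehicle replicate 1 or without PA replicate 2, when Fads3 and Elovl1 joined, and the count with LA was 1 without Vehicle replicate 1, when Elovl1 did. Both comparisons share the Vehicle libraries and cross the GC trend, which was not removed for these medians. With the trend removed, 5 members passed the adjusted p with PA and 3 with LA. Beside them stood 4570 and 2709 of the 14097 tested genes. Of the 3 with LA, Scd1 was then higher, by 0.21.

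PA against LA, the direct comparison of the saturated with the polyunsaturated acid, called 2 of 9 members, again Scd1 and Fads2, both lower with PA, beside 3.23% of all tested genes. At the adjusted p alone 3 passed, with Fads1 the additional one, beside 11.1%. The count fell to 1 without PA replicate 1 or LA replicate 2, leaving Scd1. In the presence of NTP the same 2 members were called between PA+NTP and LA+NTP, beside 3.82% of all tested genes. Here 4 passed the adjusted p alone, all lower with PA+NTP, beside 14.8%: Scd1, Fads2 at -0.62 (SE 0.076, edgeR adjusted p = 1.18e-04), Fads1 at -0.35 and Fads3 at -0.32. After removal of the trend Fads2 was at -0.58 between PA+NTP and LA+NTP and lost its call by the fold.

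**Figure D3:**
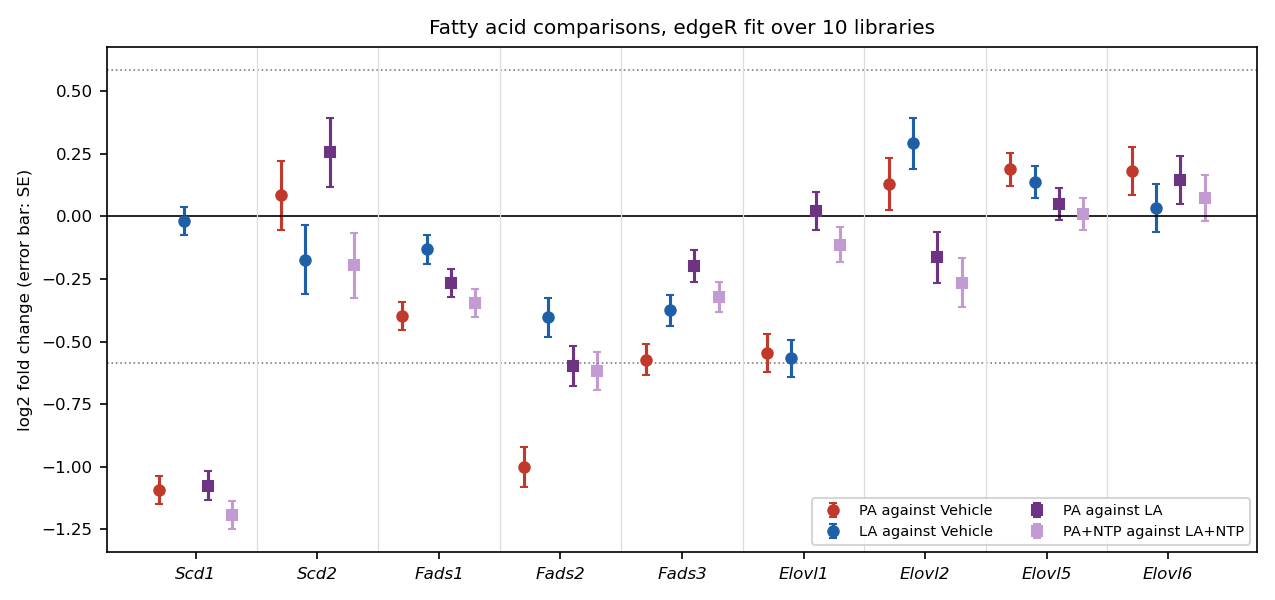
Log2 fold change (vertical axis) of the 9 tested members in 4 comparisons of fatty acids; error bars are standard errors of the edgeR fit, and the dotted lines mark the fold threshold of 1.5 in either direction. PA against Vehicle and both comparisons of PA with LA are near -1.1 for Scd1, where LA against Vehicle is -0.02, whereas for Elovl1 both acids are near -0.55 from Vehicle and PA and LA differ by 0.02.

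Fads2 rose with NTP on both fatty acids, and Scd1 did not pass the test on either. Fads2 rose by 0.90 (SE 0.080, edgeR adjusted p = 1.67e-06) in PA+NTP against PA and by 0.92 (SE 0.077, edgeR adjusted p = 5.36e-07) in LA+NTP against LA, folds of 1.86 and 1.89. Both rises were called with any library left out, and with the GC trend removed they were 0.75 and 0.73 and still called. Scd1 differed by -0.07 (95% interval -0.19 to 0.05) in PA+NTP against PA and by 0.05 (-0.07 to 0.17) in LA+NTP against LA. With the GC trend removed both values for Scd1 were lower, at -0.31 (edgeR adjusted p = 0.00155) and -0.25 (edgeR adjusted p = 0.00583), under the fold threshold.

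Elovl1 was higher with NTP by 0.55 (SE 0.074, edgeR adjusted p = 4.20e-05) on PA, under the fold threshold, and rose by 0.68 (SE 0.072, edgeR adjusted p = 3.48e-06) on LA. The value on PA was called without PA replicate 2, at 0.64, and without PA+NTP replicate 1, at 0.60. Without the trend the values were 0.37 and 0.46, and neither was called. Fads3 was higher by 0.30 and 0.42 and Fads1 by 0.18 and 0.26 on PA and LA, all 4 at the adjusted p alone. Without it these came to 0.07 and 0.14 for Fads3 and to 0.00 and 0.03 for Fads1, and none passed the adjusted p. Elovl2 was lower by -0.44 (SE 0.103, edgeR adjusted p = 0.00294) on PA and by -0.34 (SE 0.099, edgeR adjusted p = 0.00973) on LA, which became -0.22 and -0.05 with the trend removed. Elovl2 on PA was called without PA replicate 2, at -0.60. Elovl5 was lower by -0.20 on PA at the adjusted p alone, and at -0.12 without the trend it no longer passed.

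In all, NTP called 1 of 9 members on PA, beside 13.9% of tested genes, and 2 of 9 on LA, beside 19.3%. At the adjusted p alone these were 6 members beside 44.7% and 5 members beside 51.5%. The count on PA was 3 without PA replicate 2 and 2 without PA+NTP replicate 1. The effect of NTP did not pass a test of difference between PA and LA for any member. By edgeR 0.0% of the tested genes were called for that difference and 0.0% passed the adjusted p, with 1029 genes and 1 member, Scd2, at an unadjusted p under 0.05, and DESeq2 called 5 genes and no member. The difference was -0.02 (95% interval -0.26 to 0.22) for Fads2 and -0.45 (-0.86 to -0.05) for Scd2.

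**Figure D4:**
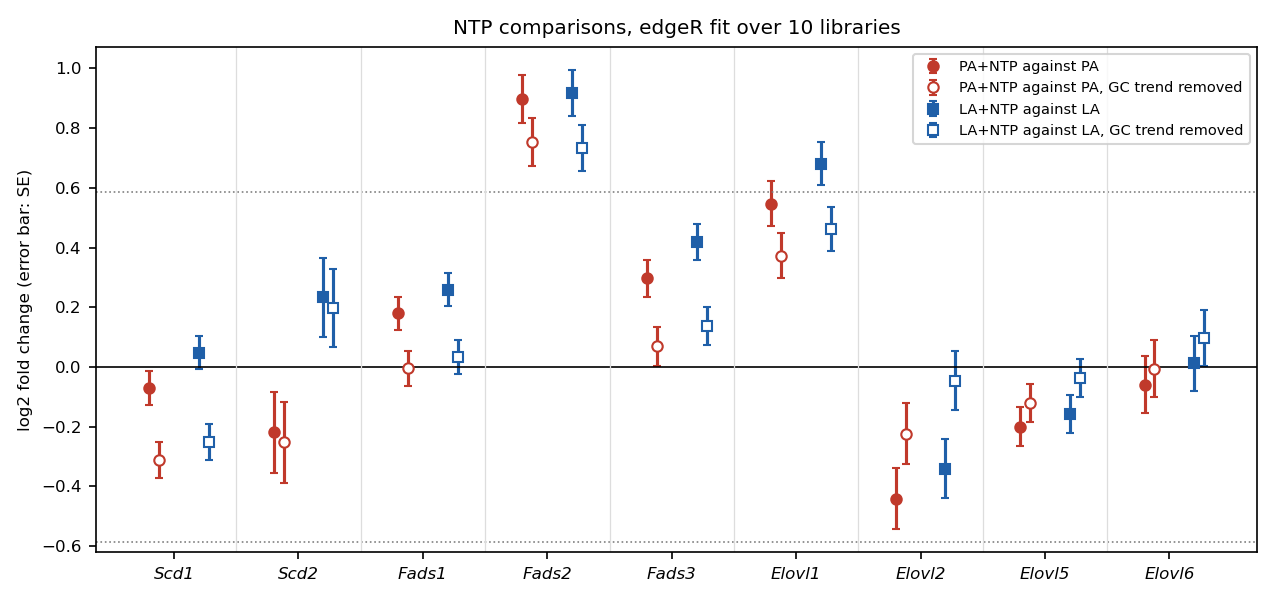
Log2 fold change (vertical axis) of the 9 tested members with NTP against the same FFA alone; filled points are the edgeR fit, open points the fit with the GC trend removed, error bars are standard errors, and dotted lines mark the fold threshold of 1.5. Fads2 stays above the threshold in all 4 fits, at 0.73 to 0.92, while the values of Fads1, Fads3 and Elovl2 shrink when the trend is removed.

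Promoter windows are shown for Fads2 and Elovl1, the members called with NTP, and for Elovl5, which was not called, from RefSeq on GRCm38.p6. Each runs from 250 bases before to 50 bases after an annotated transcript start, and a gene may have several. The Elovl1 window shown is 1 of 2 and lies inside the gene as given above, not at its outermost start. The RefSeq table held 8 windows for 6 members, and Scd1, Scd2, Fads1 and Elovl3 had none. Motifs were searched on both strands, and the capitals mark the GC box GGGCGG and the CCAAT box, which may overlap. They were found in 35.7% and 37.4% of 32851 windows.
Fads2, chr19:10101454-10101753, minus strand: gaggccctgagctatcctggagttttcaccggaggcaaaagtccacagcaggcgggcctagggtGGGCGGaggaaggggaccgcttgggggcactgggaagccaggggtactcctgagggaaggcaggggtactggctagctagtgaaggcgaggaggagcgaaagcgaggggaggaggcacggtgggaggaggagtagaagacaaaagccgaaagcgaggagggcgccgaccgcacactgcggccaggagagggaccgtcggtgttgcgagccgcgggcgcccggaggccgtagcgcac
Elovl1, chr4:118427843-118428142, plus strand: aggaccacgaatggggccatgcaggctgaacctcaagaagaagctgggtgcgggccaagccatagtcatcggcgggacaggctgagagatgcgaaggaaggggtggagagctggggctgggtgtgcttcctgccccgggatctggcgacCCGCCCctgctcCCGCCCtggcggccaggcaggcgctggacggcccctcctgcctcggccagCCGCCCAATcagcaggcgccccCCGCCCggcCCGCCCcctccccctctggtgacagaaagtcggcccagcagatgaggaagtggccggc
Elovl5, chr9:77917115-77917414, plus strand: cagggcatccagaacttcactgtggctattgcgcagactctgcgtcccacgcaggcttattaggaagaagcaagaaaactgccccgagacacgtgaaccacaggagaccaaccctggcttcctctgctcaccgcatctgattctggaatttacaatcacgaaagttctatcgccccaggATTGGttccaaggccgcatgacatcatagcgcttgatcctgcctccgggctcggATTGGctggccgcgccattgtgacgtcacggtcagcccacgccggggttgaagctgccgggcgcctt
The Fads2 window held 1 GC box, the Elovl1 window 5 GC boxes and 1 CCAAT box, and the Elovl5 window 2 CCAAT boxes and 1 E-box CACGTG, a motif in 7.15% of windows. The sterol regulatory element TCACNCCAC, in 1.24% of windows, and the nuclear receptor repeats DR4 and DR1, direct repeats of AGGTCA found in 5 and 13 windows, were in none of the 8 windows. A match or its absence in these letters is a description of the window only.

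Set against Vehicle, the groups with NTP and an FFA showed how far the members stood from cells without either. These 2 comparisons were added after the values were seen. PA+NTP called 1 member against Vehicle, Scd1, which was lower by -1.16 (SE 0.057, edgeR adjusted p = 5.94e-08), beside 2.85% of tested genes, and 3 members passed the adjusted p alone, beside 10.1%. The other 2 were Fads1 at -0.22 and Fads3 at -0.28. Fads2 differed from Vehicle by -0.10 (95% interval -0.27 to 0.06). LA+NTP called no member against Vehicle by edgeR or DESeq2, beside 0.0922%, and only Fads2 passed the adjusted p, at 0.51 (SE 0.076, edgeR adjusted p = 0.0169), beside 0.284%, with 2 members at an unadjusted p under 0.05. Scd1 in LA+NTP differed from Vehicle by 0.03 (95% interval -0.09 to 0.15).

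By level per length, the order of the members was the same at its ends in every group, with Scd1 the highest and Elovl2, Elovl6, Scd2 and Elovl3 the lowest in that order. The middle of the order changed. In Vehicle it ran Fads2, Fads1, Elovl1, Fads3 and Elovl5 at mean levels of 76.3, 51.1, 49.3, 45.4 and 32.2 FPKM, where only Fads1 and Elovl1 overlapped. With PA it ran Fads1, Fads2, Elovl5, Elovl1 and Fads3 at 37.9, 36.9, 35.7, 32.8 and 29.8 FPKM, and each overlapped the next except Elovl1 and Fads3. With LA, Elovl5 at 34.3 FPKM overlapped Fads3 at 34.0 FPKM. The 5 genes thus spanned 29.8 to 37.9 FPKM with PA and 32.2 to 76.3 FPKM in Vehicle, subject to the length given to Fads2.

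Other genes of these families were counted as a list of 5, Scd3, Scd4, Elovl4, Elovl7 and Fads6, of which 4 could be tested and Elovl4, with at most 8 counts, could not. Fads6, a member of the FADS family of unsettled function, was 19.2 FPKM in Vehicle and fell by 0.83 with PA (SE 0.111, edgeR adjusted p = 3.86e-05) and by 0.78 with LA (SE 0.108, edgeR adjusted p = 6.89e-05), and rose by 0.84 with NTP on LA, all also called with the GC trend removed. With NTP on PA Fads6 was higher by 0.40 at the adjusted p alone, and by 0.27 with the trend removed. Scd3 stood below 0.5 FPKM on average in every group, with at most 58.9 counts, and was called higher with PA at 0.96 and with LA at 1.13, and lower with NTP on LA at -1.02. The call with PA was lost with the GC trend removed, at 0.93. Its sequence is the one most shared with Scd1 and Scd2, so its counts are uncertain. Elovl7 was higher at the adjusted p alone with PA, at 0.35, and with LA, at 0.40, which became 0.08 and 0.10 without the trend, and Scd4 passed the adjusted p in none of the 6 comparisons.

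The partners of elongation and the electron donors made a list of 12 genes, all tested. With PA 2 were called lower and with LA 1 was called higher, while at the adjusted p alone 5 were higher and 3 lower with PA and 6 higher and 3 lower with LA. Over all tested genes 14.9% and 10.6% were called and 45.5% and 41.3% passed the adjusted p in these comparisons. Tecr, the enoyl reductase that ends each round of elongation, went from 109 FPKM in Vehicle to 54.6 FPKM with PA, a fall of 0.96 (SE 0.071, edgeR adjusted p = 3.83e-07). With LA it was lower by -0.53, at the adjusted p alone. It rose with NTP by 0.86 on PA and 0.88 on LA. With the GC trend removed the fall with PA was -0.64 and still called, but the rises were 0.52 and 0.44 and not called. The LA value was then -0.20. Hsd17b12, the ketoreductase of the cycle, differed the other way, at 105 FPKM in Vehicle and 153 FPKM with PA, by 0.57 with PA and 0.51 with LA at the adjusted p alone, and by 0.38 and 0.29 without the trend. Cyb5r3, which feeds electrons to the desaturases, fell by 0.76 with PA and rose by 0.65 with NTP on LA, neither called with the trend removed. It was also lower with LA, by -0.42 at the adjusted p alone and by -0.12 without the trend. With NTP on PA Cyb5r3 was higher by 0.56 at the adjusted p alone, and by 0.25 without the trend. Its partner Cyb5a was higher by 0.28 with PA and 0.33 with LA at the adjusted p alone, and by 0.16 and 0.18 without the trend. Among the dehydratases, Hacd4 was called higher with LA at 1.27, at a mean of 0.475 FPKM, and lost that call with the trend removed. Hacd1 was lower, by -0.27 with PA and -0.34 with LA, and Hacd3 higher, by 0.20 and 0.27, at the adjusted p alone. The values of Hacd3 were 0.04 and 0.08 without the trend. Hacd2 met the adjusted p between PA and LA, at 0.23. Cyb5r1 was higher with PA by 0.52 and above LA by 0.47, and Cyb5r4 was higher by 0.42 with PA and 0.43 with LA, at the adjusted p alone. After the trend was removed Cyb5r4 was at 0.13 and 0.11, and Cyb5r1 was called with PA, at 0.69, and with NTP on PA, at -0.60. Cyb5b met the adjusted p with LA, at 0.18, and Cyb5r2 in none of the 6 comparisons. Between PA and LA 2 of the 12 were higher and 2 lower at the adjusted p alone, beside 11.1% of all tested genes. The lower ones were Tecr at -0.43 and Cyb5r3 at -0.33.

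Of 12 regulators, all tested, 2 were called lower with PA and 3 with LA, beside the 14.9% and 10.6% of all tested genes called in either direction, and with NTP 3 were called higher on PA and 4 on LA, beside 13.9% and 19.3%. Scap, the escort of SREBP out of the endoplasmic reticulum, fell by 0.59 with PA and 0.67 with LA and rose by 0.67 and 0.76 with NTP. Nr1h2, the liver X receptor beta, fell by 0.67 and 0.74 and rose by 0.75 and 0.99. Mlxipl, the carbohydrate response factor ChREBP, fell by 0.75 with LA, and rose with NTP by 1.03 on PA and 0.92 on LA. Srebf1, which encodes SREBP-1c, was at 14.3 FPKM in Vehicle, 9.68 FPKM with PA and 9.91 FPKM with LA, lower by -0.53 and -0.49 at the adjusted p alone, and rose by 0.72 with NTP on LA. At the adjusted p alone, Srebf1 was also higher by 0.53 with NTP on PA, and Mlxipl was lower by -0.55 with PA. Without the GC trend these 2 values were 0.04 and -0.18. With the GC trend removed, only the rise of Mlxipl on PA, at 0.63, was still called among these 4 genes. Insig1, which holds SREBP back, differed between PA+NTP and LA+NTP, at 7.22 and 10.9 FPKM, by -0.62 (SE 0.126, edgeR adjusted p = 0.00473). It was the 1 regulator called there, beside 3.82% of all tested genes. Insig2 was higher than Vehicle by 0.24 with PA and by 0.56 with LA, and lower with PA than with LA by -0.32, at the adjusted p alone. Without the GC trend its differences from Vehicle were 0.16 and 0.45. Srebf2, Rxra and Mbtps2 met the adjusted p with either acid, at -0.40 and -0.37, -0.18 and -0.26, and 0.42 and 0.41. Without the GC trend these became -0.04 and 0.01 for Srebf2, turned to 0.22 and 0.16 for Rxra, and were 0.20 and 0.16 for Mbtps2. Nr1h3, Mbtps1 and Ppara passed the adjusted p in none of the 6 comparisons. Between PA and LA the median of the list was 0.01, as over all tested genes. Insig2 was the 1 regulator to pass the adjusted p there, beside 11.1% of all tested genes.

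The 9 lipogenic targets of SREBP-1c had 1 higher and 4 lower with PA at the adjusted p alone, beside 45.5% of all tested genes. With LA 1 was called, beside 10.6% of all tested genes. This was Fasn, the fatty acid synthase, which fell by 0.65. Fasn rose by 0.85 with NTP on LA and Pnpla3, under 0.2 FPKM on average, by 1.67, both called beside 19.3% of tested genes. None of these 3 calls held with the GC trend removed. With NTP on PA Fasn was higher by 0.53 at the adjusted p alone, and by 0.07 with the trend removed. Between PA and LA 2 lipogenic targets were lower at the adjusted p alone, beside 11.1% of all tested genes. They were Acaca at -0.20 and Acss2 at -0.36, which were named after their values were seen. With PA the 5 were Me1 at 0.27, Acly at -0.16, Acaca at -0.23, Fasn at -0.55 and Acss2 at -0.32, also named then. Without the GC trend they were at 0.15, -0.02, -0.31, -0.11 and -0.27 in that order.

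**Figure D5:**
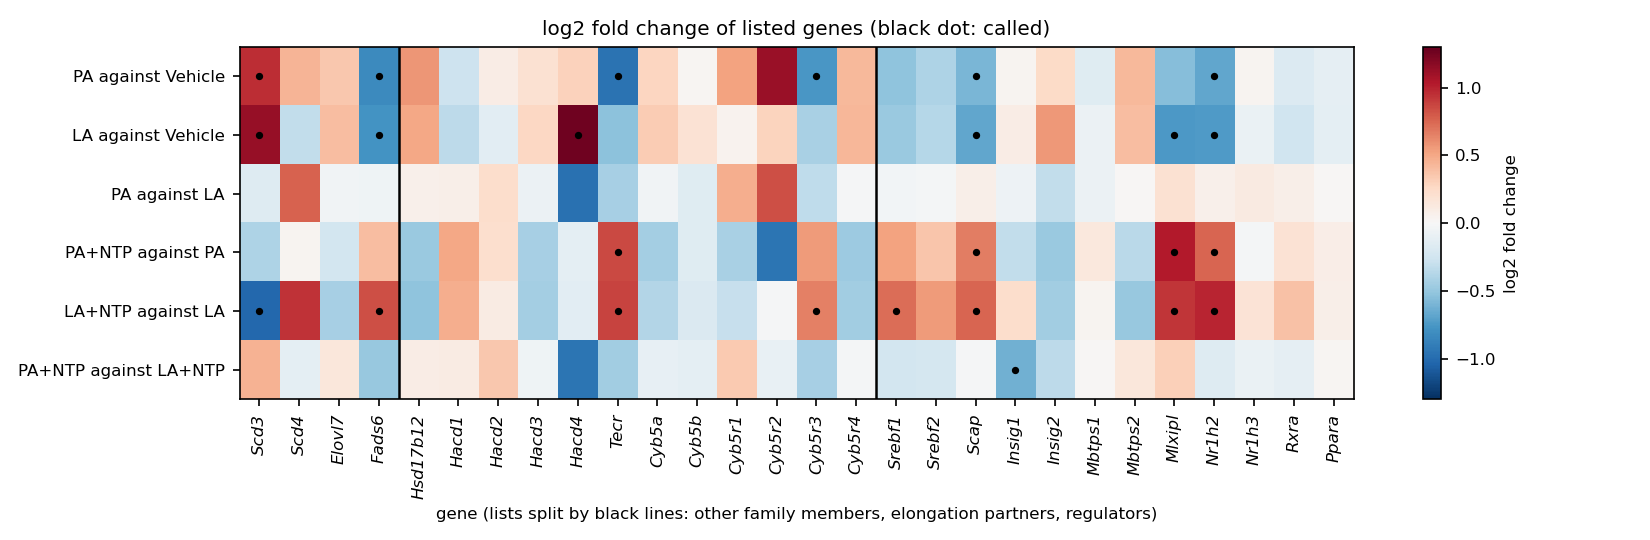
Log2 fold change (colour) of the 28 tested genes of 3 lists (horizontal axis) in 6 comparisons (vertical axis); black dots mark calls at an adjusted p under 0.05 and a fold of at least 1.5. Scap, Nr1h2 and Mlxipl are blue with either FFA and red with NTP.

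The genes most like Scd1 over the 10 libraries, by Pearson's r of log2 depth-scaled counts (CPM) among 11115 genes with a mean of at least 1 FPKM, were Rassf3 (r = 0.988), Btg2 (r = 0.986) and Agtr1a (r = 0.981). Their mean levels were 49.7, 44.8 and 11.6 FPKM in Vehicle, 41.5, 31.8 and 7.71 FPKM with PA, and 49.0, 45.0 and 11.3 FPKM with LA. They share the split of the 4 libraries with PA from the rest, at a smaller size than Scd1. For Fads2 the closest were Gm2a (r = 0.989), Tle3 (r = 0.985) and Ctnnd1 (r = 0.985), with Gm2a at 18.4 FPKM in Vehicle, 10.9 and 14.8 FPKM with PA and LA, and 16.9 and 21.4 FPKM when NTP was added. For Elovl6 they were Rcl1 (r = 0.883), Pinx1 (r = 0.883) and Timm23 (r = 0.875), lower values than for the other 2 members. These correlations describe libraries that share their groups, depth and GC trend.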

How the data were processed

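RNA was extracted with TRIzol and sequenced from 10 libraries of mouse hepatocytes. The authors deposited 1 table per library with an expected count, made with RSEM, and an FPKM per gene, in which only genes of at least 0.01 FPKM are listed. The submitters' notes name HISAT, Bowtie2 and mm10, and versions are not stated there. A gene missing from a table was set to 0. The libraries held 15211 to 16318 genes and 13142588 to 60046937 expected counts, and the shallower ones give low genes less precision. Groups and replicate numbers followed the sample titles; the file names number some libraries differently, and the replicate block and each library left out use the titles.

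Expected counts as deposited were rounded, since 71.7 to 76.7% were whole within 1e-06, and fitted over all 10 libraries with edgeR 4.0.16 in R 4.3.3 (TMM, filterByExpr, quasi-likelihood F test, Benjamini-Hochberg adjustment). The filter kept 14097 of 18055 genes. An exact permutation test of 2 against 2 libraries cannot go below 0.333 and was not used. The script was tested on simulated data for PA against Vehicle with 14097 genes, of which 200 were changed by a fold of 2. Of these 91.5% were recovered, with 7 false calls. Whether these numbers hold for the measured libraries, which carry the GC trend, was not tested. GC content was known for 97.4% of genes, and its trend was removed by loess per library. Replicates of every group differed beyond sampling noise. Alternatives were DESeq2 1.42.0, limma 3.58.1 on log2(FPKM + 1) and log2(FPKM + 0.1), the rule of NOISeq, other scaling and filters, the replicate block and leaving out each library.

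The 10 members were all described. Other genes were named when they belonged to the lists of family members, partners or regulators, were called in the list of lipogenic targets (4 that were not called were named after their values were seen), or were among the 3 most correlated with Scd1, Fads2 or Elovl6. Members and lists were chosen with earlier results of these data known. A list of PPAR alpha targets is not reported here.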

Additional observations from a re-analysis of the deposited data

How the results depend on the processing

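The number of members called was the same, or within 1.5 times, in 86 of 115 values under other settings and in 83 of 90 with a library left out. Without a fold threshold it was 6 for PA against Vehicle, 4 for LA against Vehicle, 6 for PA+NTP against PA, 5 for LA+NTP against LA, 4 for PA+NTP against LA+NTP, 3 for PA+NTP against Vehicle and 1 for LA+NTP against Vehicle. Scaling by library size gave 1 for LA against Vehicle, 1 for PA against LA and 2 for PA+NTP against PA. With limma on log2(FPKM + 1) it was 1 for LA against Vehicle, 2 for PA+NTP against PA and 1 for PA+NTP against LA+NTP, and on log2(FPKM + 0.1) it was 4 for PA against Vehicle, 1 for LA against Vehicle and 2 for PA+NTP against PA. The NOISeq rule at 0.95 gave 0 in PA against Vehicle, PA against LA, PA+NTP against PA, LA+NTP against LA, PA+NTP against LA+NTP and PA+NTP against Vehicle, and at 0.8 it gave 4 in PA against Vehicle, 1 in LA against Vehicle and 2 in PA+NTP against PA. It was not run for the difference between the NTP effects. Removing the GC trend, with or without the replicate block, left 1 in LA+NTP against LA and 1 in PA+NTP against LA+NTP. With a library left out the count ran from 2 to 4 for PA against Vehicle, 0 to 1 for LA against Vehicle, 1 to 2 for PA against LA and 1 to 3 for PA+NTP against PA. The cause of these differences was not tested.

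Values that changed sign were mostly near 0. With the GC trend removed, and then with the replicate block as well, Elovl2 in PA against Vehicle was -0.0851 and -0.0833, Elovl6 in LA against Vehicle was -0.0353 and -0.0316, Scd1 in LA against Vehicle was 0.214 and 0.215, and Fads1 in LA against Vehicle was 0.0413 and 0.0419. In the same 2 fits Fads1 in PA+NTP against PA was -0.0039 and -0.0025, Scd1 in LA+NTP against LA was -0.251 and -0.252, Elovl5 in PA+NTP against LA+NTP was -0.0082 and -0.0084, the difference between the NTP effects for Fads2 was 0.0186 and 0.0256, and Scd1 in LA+NTP against Vehicle was -0.0374 and -0.0374. Elovl6 in LA against Vehicle was -0.0117 under library-size scaling, -0.01 and -0.0114 with limma at the pseudocounts of 1 and 0.1, and -0.0118 with NOISeq. Elovl6 in PA+NTP against PA was 0.011 and 0.0125 with limma and 0.0117 with NOISeq. The difference between the NTP effects for Fads2 was 0.0132 and 0.0192 with limma. With a library left out, Elovl1 in PA against LA ran from -0.0781 to 0.0897, Elovl5 there from -0.0206 to 0.105, Elovl2 in PA against Vehicle from -0.0017 to 0.278, Scd2 there from -0.102 to 0.241 and Scd1 in LA against Vehicle from -0.0397 to 0.0034. Elovl6 ran from -0.206 to 0.0721 in PA+NTP against PA, from -0.0399 to 0.0568 in LA+NTP against LA and from -0.064 to 0.207 in PA+NTP against LA+NTP, where Elovl5 ran from -0.0163 to 0.031. The difference between the NTP effects ran from -0.131 to 0.133 for Fads2, -0.252 to 0.0292 for Elovl2, -0.103 to 0.0231 for Elovl5 and -0.203 to 0.0687 for Elovl6.

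Whether the replicate numbers pair the samples is not known. The deviations of same-numbered libraries correlated at -0.069 to 0.127 over 10 pairs of groups. With 2 libraries in a group, such values cannot show that the samples were unpaired. The replicate block changed no count of members called. The 2 libraries of a group set the precision, and at most 7 counts left Elovl3 without a test.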
